A study of Mus musculus with 8 samples.

Results

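The genes described here are the cytosolic translation initiation factors, taken as every gene on the array whose symbol begins with Eif1, Eif2, Eif3, Eif4 or Eif5, apart from Eif2s3x, Eif2s3y and pseudogenes. Eif6, the gene that is deleted in these mice, does not belong to them. Of the 20660 genes that could be named through a RefSeq accession, 52 were initiation factors, read by 73 probes. Transcripts were measured in gastrocnemius and tibialis anterior (TA), a pair of hindlimb muscles, on 8 two-colour Agilent arrays, 4 for each muscle. On each array the RNA of 1 Eif6+/- mouse, with 1 functional Eif6 allele, carried Cy5 and that of 1 age-matched WT mouse carried Cy3. The mice were male littermates on the C57BL6 background, 8 to 16 weeks old, and were joined into pairs at random. Neither the labels nor the methods limit the loss of Eif6 to muscle fibres, and whole muscle was measured. With the dyes never exchanged, an effect of the dye and an effect of the genotype cannot be told apart. Each muscle filled 1 row of the same slide, so that muscle and slide row cannot be told apart either. Whether both muscles came from the same mice was not stated in the labels. The p-values for 1 muscle describe the spread among its 4 pairs. Those for a difference between the muscles, and their intervals, treat the 8 arrays as independent, which may not hold.

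Translation initiation joins the initiator tRNA, the small ribosomal subunit and an mRNA at a start codon. The initiator tRNA is brought by eIF2, which eIF2B recharges with GTP and which stress-activated kinases switch off, while the cap of the mRNA is bound by eIF4E within the eIF4F complex, a step that 4E-binding proteins block. The scaffold eIF3 links the mRNA to the small subunit, eIF1 and eIF1A guide scanning, eIF5 and eIF5B complete the joining of the subunits, and eIF6 keeps the large subunit apart from the small one until it is released. In skeletal muscle these factors, and the mTORC1 kinase upstream of eIF4F, set the rate of protein synthesis after feeding and exercise.

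Eif6 itself was measured first, as a check of the labels. The log2 ratio of Eif6+/- over WT was −1.02 ± 0.11 in gastrocnemius (SD, n = 4 pairs; limma adjusted p = 0.0241) and −0.999 ± 0.17 in TA (SD, n = 4 pairs; limma adjusted p = 0.0109). It lay between −1.15 and −0.89 on the gastrocnemius arrays and between −1.22 and −0.80 on the TA arrays, so it was lower in the Eif6+/- mouse of all 8 pairs. The share of probes that Agilent marked as well above background lay between 38.7% and 48.6% in a channel, no spot was saturated, and 233 to 318 spots per array were left out as outliers. The fibre markers Acta1, Ckm, Myh4, Tnnt3 and Actn3 were well above background in both channels of all 8 arrays. Some of them moved with genotype, since Ckm (−0.37) and Actn3 (−0.36) fell in gastrocnemius (limma adjusted p = 0.0580 and 0.0571) and Myh4 (0.80) rose in TA (limma adjusted p = 0.0119), and the summed fibre intensity was lower in the Eif6+/- mouse of all 4 gastrocnemius pairs and higher in that of 2 of the 4 TA pairs.

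Some arrays differed in cell type markers. The summed intensity of 5 slow-fibre genes was 102000 in the Eif6+/- mouse and 11400 in the WT mouse of gastrocnemius pair 1, and that of 5 connective tissue genes was 109000 against 282000 in gastrocnemius pair 3 and 170000 against 38300 in TA pair 3. In TA pair 4, where several factors called lower in TA lay nearest to 0, the slow-fibre sum was 13600 against 37300 and the fibre sum 701000 against 525000. The summed intensity of 4 red blood cell genes was lower in the Eif6+/- mouse on all 8 arrays, with log2 ratios from −1.30 to −0.02, and so was that of 5 leukocyte genes, with log2 ratios from −2.07 to −0.21. In TA the red blood cell sum was 7310 to 12900 in Eif6+/- mice and 15200 to 19600 in WT mice, and 3 of the 4 genes fell. In gastrocnemius it was 12000 to 13800 and 12200 to 22300, and none of the 3 genes tested was called. Of the slow-fibre genes, none of 5 was called in gastrocnemius and 3 of 5 fell in TA, and no gene of the connective tissue list was called in either muscle. Of 4 fat cell genes tested, Adipoq and Cfd fell in gastrocnemius, where the summed level was lower in all 4 pairs, while Plin1 and Retn rose in TA. Of 4 Schwann cell genes none was called in gastrocnemius and 3 fell in TA, and of 4 endothelial genes Tie1 fell in both muscles and Pecam1 in TA. Of the leukocyte genes, 1 of 2 tested fell in gastrocnemius and 1 of 4 in TA. Of all genes tested, 9.85% were called higher and 5.53% lower in gastrocnemius, and 8.98% higher and 7.29% lower in TA. With lists this short, a list without a call is no result about its cell type. The part of the marker differences in the results below was not tested. In whole muscle, a change in the number of cells of a type and a change in RNA per cell cannot be told apart.

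In gastrocnemius, 7 of the 50 initiation factors bright enough to test were called, meaning a limma adjusted p under 0.1 over all probes tested in the muscle. This is 14% of them beside 15.4% of all 12609 genes tested. Eif3d, Eif3k and Eif4e rose in Eif6+/- muscle (9.85% of all genes were called higher), and Eif4b, Eif4g1, Eif4g3 and Eif5a fell (5.53% of all genes were called lower). In TA, 14 of 50 were called, 28% beside 16.3% of 12381 genes. There Eif2ak3, Eif3a, Eif3h, Eif3j1, Eif3k and Eif4e rose (8.98% of all genes were called higher), and Eif2b1, Eif2b5, Eif2d, Eif3b, Eif3i, Eif4b, Eif4g1 and Eif5a fell (7.29% of all genes were called lower). The median log2 ratio of the 50 factors was −0.021 in gastrocnemius and 0.0054 in TA, beside 0.020 and 0.019 over all genes tested, so the group as a whole lay near 0 while single factors moved both ways.

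**Figure D1:**
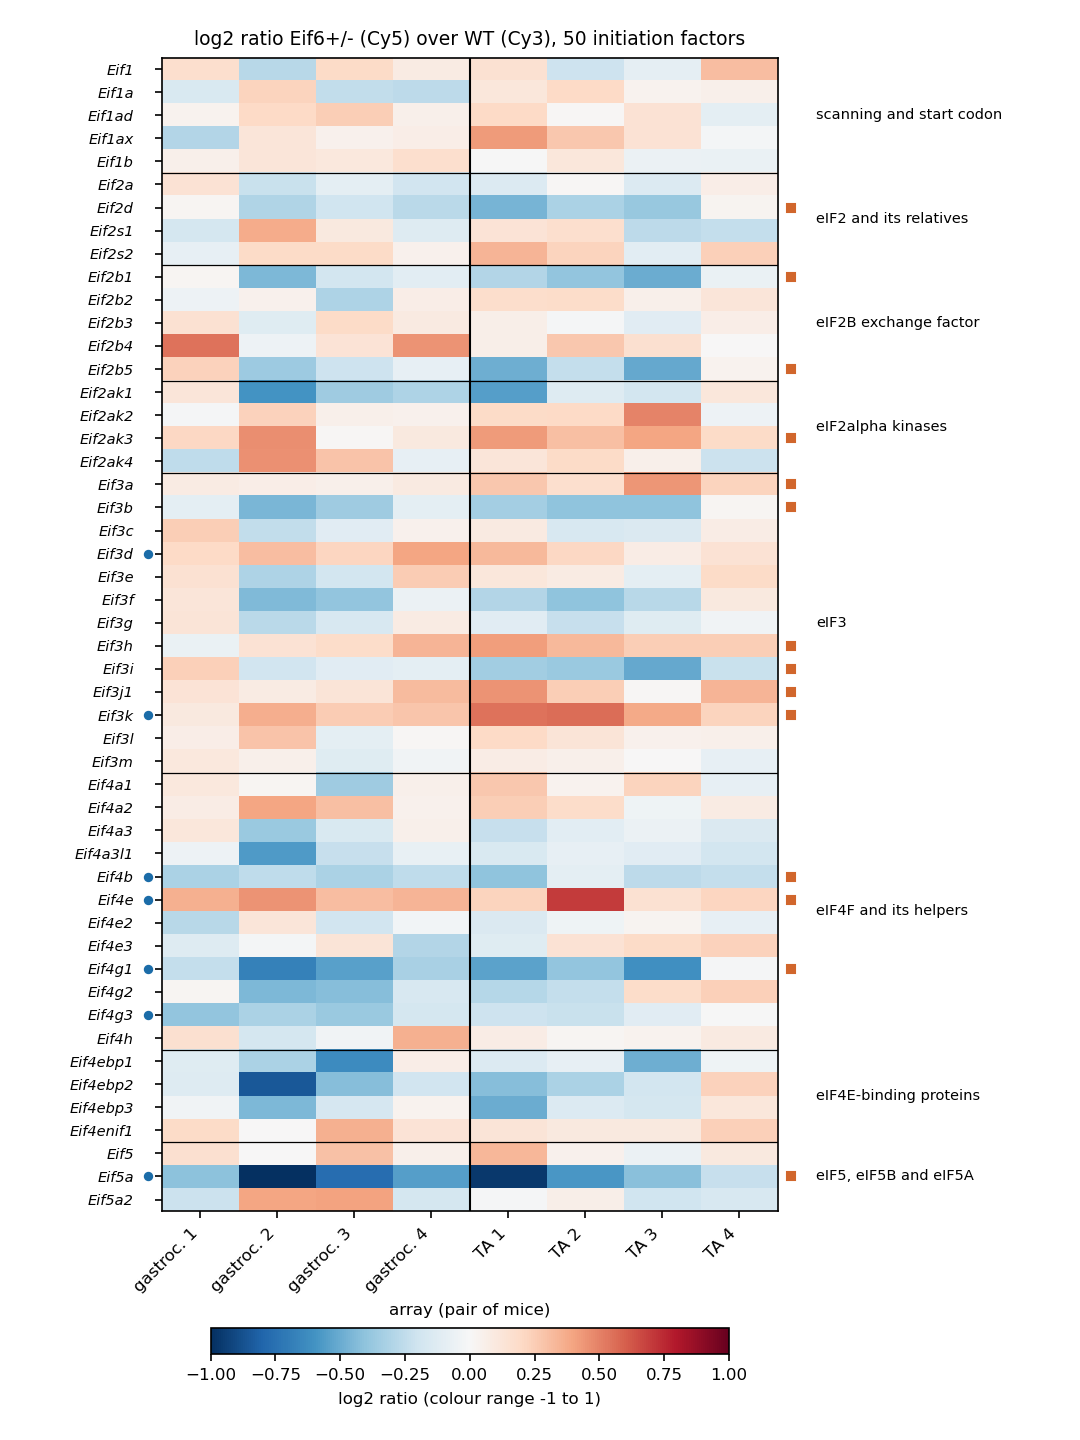
Log2 ratio of Eif6+/- over WT for the 50 initiation factors that were tested (rows, grouped by role) on the 8 arrays (columns, 4 pairs of mice for each muscle), red for higher and blue for lower in Eif6+/-. Blue circles on the left mark factors called in gastrocnemius and orange squares on the right those called in TA; the colours end at −1 and 1, and only Eif5a in gastrocnemius pair 2, at −1.09, lies beyond them.

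Those counts varied with the pair left out, and a fit with fewer arrays has less power. Eif6 itself stayed between −1.06 and −0.97 in gastrocnemius with any pair left out, yet was called in 2 of those 4 fits. In TA it was called in all 4. A lost call therefore does not show that a change rested on the pair left out. Without gastrocnemius pair 1, where the slow-fibre genes stood apart, 8 factors were called there (14% of all genes), and without TA pair 4, 15 were called in TA (16.3% of all genes). Without gastrocnemius pair 3 or without gastrocnemius pair 4, none of the 12609 genes was called by limma, initiation factors included, although 9 and 10 factors had an unadjusted p under 0.05. Without gastrocnemius pair 2 the count was 3 (Eif4e, Eif4g1 and Eif5a), beside 10.7% of all genes. In TA no factor was called without pair 1 or without pair 2, where 12 and 13 had an unadjusted p under 0.05 and 68 and 531 of all genes were still called, and 6 were called without pair 3, beside 9.57% of all genes. With any single pair left out, pair 1 included, Eif4b was called in neither muscle, Eif4g3 was not called in gastrocnemius and Eif4e was not called in TA. The TA count also came close to the share of all genes at a background offset of 0, with 5 of 50 factors beside 9.81% of genes. The same held on Agilent's own log ratios, with 3 of 50 beside 6.82%. A one-sample test without moderation called 0 of 50 factors and only 0.194% of all genes, too few to compare the shares. Among the 16 factors called in at least 1 muscle, the mean log2 ratio in the muscle of the call kept its sign with any pair left out. These factors were chosen by calls on the same pairs, so this is no separate test.

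The factors called in both muscles were Eif5a, Eif4g1 and Eif4b, which fell, and Eif4e and Eif3k, which rose. The letters just upstream of their transcription starts are shown because these members moved the same way in both muscles. The sequences come from RefSeq, build GRCm38.p6, which lists starts for 42 of the 52 factors. Each covers the 110 bases before a start, read 5′ to 3′ on the gene's strand, with every CACGTG, the letters of the E-box read by Myc and related factors, in capitals. Where several starts were listed, as for Eif5a (6) and Eif4e (2), the start with the nearest such match is shown.
Eif5a (chr11:69921387-69921496, minus strand): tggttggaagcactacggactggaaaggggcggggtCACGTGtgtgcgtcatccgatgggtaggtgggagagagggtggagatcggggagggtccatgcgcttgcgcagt
Eif4g1 (chr16:20672617-20672726, plus strand): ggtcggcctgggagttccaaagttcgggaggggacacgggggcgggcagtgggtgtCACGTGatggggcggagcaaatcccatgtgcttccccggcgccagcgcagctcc
Eif4b (chr15:102073663-102073772, plus strand): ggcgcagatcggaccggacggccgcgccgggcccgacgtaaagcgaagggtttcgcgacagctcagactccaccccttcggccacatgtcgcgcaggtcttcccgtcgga
Eif4e (chr3:138527158-138527267, plus strand): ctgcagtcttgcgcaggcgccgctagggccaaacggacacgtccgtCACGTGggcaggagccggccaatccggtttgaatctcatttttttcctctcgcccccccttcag
Eif3k (chr7:28981889-28981998, minus strand): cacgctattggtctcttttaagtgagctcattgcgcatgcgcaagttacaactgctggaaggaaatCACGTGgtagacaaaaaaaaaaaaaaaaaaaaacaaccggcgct

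Before the start shown, CACGTG began 74 bases upstream in Eif5a, 54 in Eif4g1, 64 in Eif4e and 44 in Eif3k, and the window of Eif4b held none. Factors with the match thus lay on both sides of 0, since Eif5a and Eif4g1 fell while Eif4e and Eif3k rose. Over the full windows, which reach from 250 bases before to 50 after a start, CACGTG was present in 10 of the 42 factors (23.8%) beside 8.09% of the 27025 genes in the table. Among the factors with a window it was found in 5 of the 14 called in at least 1 muscle and in 5 of the 28 called in neither. Other motifs were searched on both strands. GGGCGG was present in 31 of the 42 factors (73.8%, beside 38.2% of all genes), CCAAT in 16 (38.1%, beside 41.1%), and TGATGNAAN, letters read by ATF4 with a partner, in none (4.5% of all genes). A match is a description of the letters and not a bound site.

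Eif5a fell further than any other initiation factor in both muscles. It encodes eIF5A, a hypusine-bearing factor that helps ribosomes through difficult peptide bonds and in termination. Its log2 ratio in gastrocnemius was −0.41, −1.09, −0.76 and −0.55 in pairs 1 to 4. In TA it was −0.97, −0.58, −0.42 and −0.23. All 8 pairs had the lower level in the Eif6+/- mouse, and the spread between pairs was wide in both muscles. The mean was −0.70 ± 0.30 in gastrocnemius (SD, n = 4 pairs; limma adjusted p = 0.0325), or 0.61-fold, and −0.55 ± 0.31 in TA (SD, n = 4 pairs; limma adjusted p = 0.0350), or 0.68-fold. Its paralogue Eif5a2 was not called, with means of 0.10 and −0.08. Eif5, which makes eIF2 hydrolyse its GTP at the start codon, was not called either, at 0.13 ± 0.13 and 0.11 ± 0.17 (SD, n = 4 pairs each). Eif5b, the GTPase of subunit joining, could not be tested, since its probe was well above background in Cy3 on none of the 8 arrays and in Cy5 on 5 of them.

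**Figure D2:**
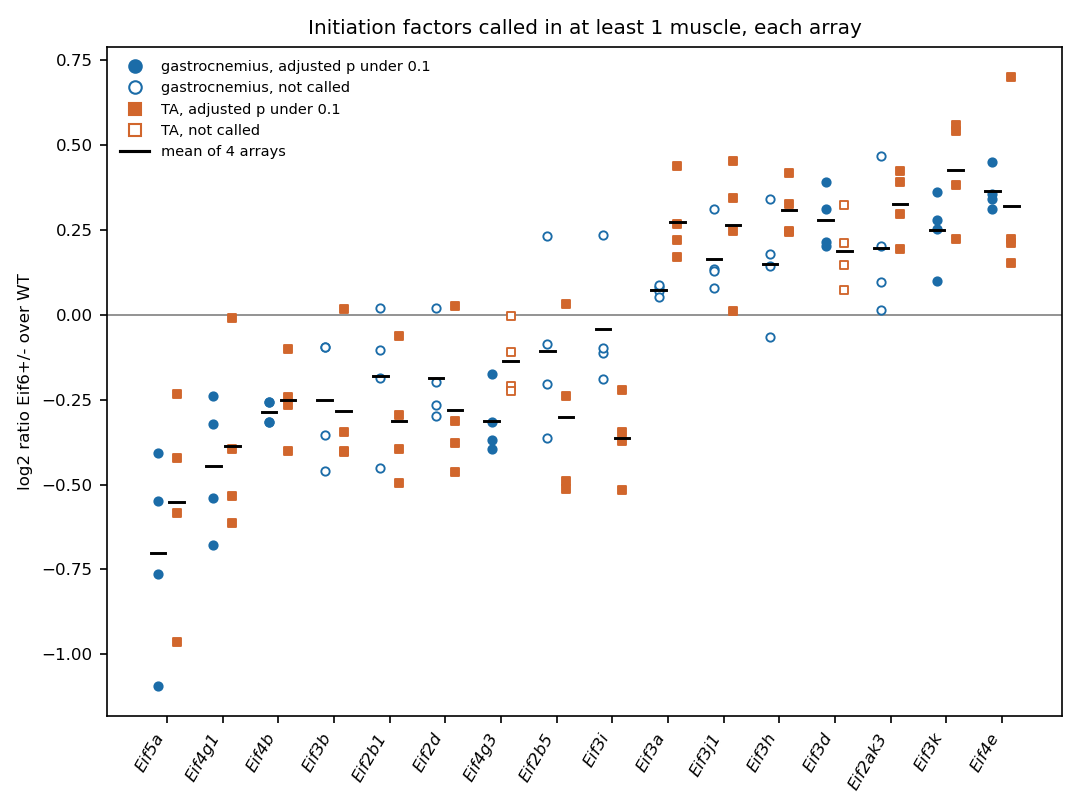
Log2 ratio of Eif6+/- over WT on each array for the 16 initiation factors called in at least 1 muscle, ordered by mean; circles are gastrocnemius pairs, squares TA pairs, filled where the factor was called in that muscle, and bars the mean of 4 arrays. Eif5a, Eif4g1 and Eif4b lie below 0 and Eif4e and Eif3k above 0 on all 8 arrays.

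Within the cap-binding complex, Eif4e rose and Eif4g1 fell in both muscles. Eif4e, which encodes the protein that holds the cap, had log2 ratios of 0.36, 0.45, 0.31 and 0.34 in the gastrocnemius pairs and of 0.22, 0.70, 0.15 and 0.21 in the TA pairs. It was higher in the Eif6+/- mouse of all 8 pairs, closely alike in gastrocnemius and with TA pair 2 far above the other three. The mean was 0.36 ± 0.06 in gastrocnemius (SD, n = 4 pairs; limma adjusted p = 0.0400), or 1.29-fold, and 0.32 ± 0.25 in TA (SD, n = 4 pairs; limma adjusted p = 0.0858), or 1.25-fold, which became 0.20 without TA pair 2. Eif4g1, the scaffold that joins eIF4E, the helicase eIF4A and eIF3, had −0.24, −0.68, −0.54 and −0.32 in gastrocnemius and −0.53, −0.39, −0.61 and −0.01 in TA. It was lower in all 8 pairs, although by next to nothing in TA pair 4. The means were −0.44 ± 0.20 (SD, n = 4 pairs; limma adjusted p = 0.0465) and −0.39 ± 0.27 (SD, n = 4 pairs; limma adjusted p = 0.0602).

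Eif4b, which stimulates the helicase, had −0.32, −0.26, −0.32 and −0.26 in the gastrocnemius pairs and −0.40, −0.10, −0.27 and −0.24 in the TA pairs. In gastrocnemius these were among the tightest values of any factor. The means were −0.29 ± 0.03 (SD, n = 4 pairs; limma adjusted p = 0.0574) and −0.25 ± 0.12 (SD, n = 4 pairs; limma adjusted p = 0.0772). Eif4g3, a second scaffold of the eIF4G family, fell in gastrocnemius, where its log2 ratios were −0.40, −0.32, −0.37 and −0.17 (mean −0.31, limma adjusted p = 0.0574). In TA it was −0.14 (limma adjusted p = 0.251). Eif4a1, the main helicase subunit, was not called in either muscle, with pairs on both sides of 0 (−0.36 to 0.11 in gastrocnemius and −0.08 to 0.27 in TA). Among 12 tested factors placed by symbol with eIF4F and its helpers, 1 rose and 3 fell in gastrocnemius, beside 9.85% and 5.53% of genes. In TA 1 rose and 2 fell, beside 8.98% and 7.29%. The others were not called. Eif4e1b, a germ-line relative of Eif4e, was not tested, being well above background in Cy5 on 3 arrays and in Cy3 on 1.

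None of the 4 genes of the group that restrains eIF4E was called, beside 15.4% of all genes in gastrocnemius and 16.3% in TA. With so few genes this is no result about the group, and Eif4ebp2 came past the threshold under other settings. The log2 ratio of Eif4ebp2 in gastrocnemius was −0.13, −0.84, −0.42 and −0.19, and its mean of −0.40 lay just outside the threshold (limma adjusted p = 0.101). It was called there under 3 of 10 other processing choices and without pair 1, while its mean became −0.25 without pair 2. In TA it was −0.17 (limma adjusted p = 0.325), with TA pair 4 at 0.23 and the other three below 0, and it was called at −0.31 without that pair. Without TA pair 1 its TA mean was −0.09. Eif4ebp1, the best studied of the repressors that mTORC1 switches off, was at −0.25 ± 0.29 in gastrocnemius and −0.19 ± 0.20 in TA (SD, n = 4 pairs each; limma adjusted p = 0.220 and 0.210). Its pairs were at −0.12, −0.31, −0.63 and 0.06 in gastrocnemius and at −0.14, −0.08, −0.49 and −0.04 in TA, and without pair 3 the means were −0.12 and −0.09. Eif4enif1, an eIF4E-binding shuttling protein, was the exception in sign, higher in all 8 pairs but not called (means of 0.17 and 0.14).

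Of the 13 subunit genes of the eIF3 scaffold, 2 rose and none fell in gastrocnemius, beside 9.85% and 5.53% of all genes, and 4 rose and 2 fell in TA, beside 8.98% and 7.29%. The gastrocnemius share is that of all genes, 15.4%. Eif3k, a peripheral subunit, had log2 ratios of 0.10, 0.36, 0.25 and 0.28 in gastrocnemius and of 0.54, 0.56, 0.38 and 0.22 in TA. Its brightest probe was higher in the Eif6+/- mouse of all 8 pairs, with means of 0.25 ± 0.11 (SD, n = 4 pairs; limma adjusted p = 0.0965) and 0.43 ± 0.16 (SD, n = 4 pairs; limma adjusted p = 0.0280). In gastrocnemius it was called under only 2 of 10 other processing choices, and the result depended on the probe, as given below. Eif3d, the subunit that can itself bind the cap of some mRNAs, had 0.20, 0.31, 0.21 and 0.39 in gastrocnemius (mean 0.28, limma adjusted p = 0.0684), and in TA its mean of 0.19 was not called (limma adjusted p = 0.136) although all 4 pairs were above 0.

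Eif3a, the largest subunit, had 0.27, 0.17, 0.44 and 0.22 in the TA pairs and 0.08, 0.07, 0.05 and 0.09 in the gastrocnemius pairs. Only the TA mean was called (0.27, limma adjusted p = 0.0631), and the difference between the muscles was not called (limma adjusted p = 0.647). Eif3h rose in TA, with 0.42, 0.33, 0.24 and 0.25 (mean 0.31, limma adjusted p = 0.0419), and so did Eif3j1, a loosely held subunit, with 0.45, 0.25, 0.01 and 0.34 (mean 0.26, limma adjusted p = 0.0964), although it was called under only 3 of 10 other processing choices. The core subunits Eif3b and Eif3i, which sit together in the complex, fell in TA. Eif3i had −0.35, −0.37, −0.52 and −0.22 (mean −0.36, limma adjusted p = 0.0347). Eif3b had −0.34, −0.40, −0.40 and 0.02 (mean −0.28, limma adjusted p = 0.0880), and its gastrocnemius mean of −0.25 was not called (limma adjusted p = 0.134). The other 6 subunits, Eif3c, Eif3e, Eif3f, Eif3g, Eif3l and Eif3m, were called in neither muscle by their brightest probes, with means between −0.22 (Eif3f in TA) and 0.11 (Eif3l in TA).

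Among genes of eIF2 recharging, Eif2b1 and Eif2b5, which encode the alpha subunit and the catalytic epsilon subunit of the eIF2B exchange factor, fell in TA. Eif2b1 had −0.29, −0.39, −0.50 and −0.06 (mean −0.31, limma adjusted p = 0.0644), and Eif2b5 had −0.49, −0.24, −0.51 and 0.03 (mean −0.30, limma adjusted p = 0.0997). For both genes TA pair 4 was nearest to 0 or above it, and Eif2b5 was called under only 1 of 10 other processing choices. In gastrocnemius their means were −0.18 and −0.11. Of the 5 eIF2B genes, none was called there by its brightest probe, beside 15.4% of all genes. The 2 of 5 that fell in TA stand beside 7.29% of all genes. Eif2b4, the delta subunit, had the third highest mean of all factors in gastrocnemius, at 0.27 ± 0.27 (SD, n = 4 pairs), which was not called (limma adjusted p = 0.176), with values of 0.54, −0.05, 0.14 and 0.45.

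Of eIF2 and its relatives, Eif2d, which can deliver tRNA to the ribosome without eIF2, fell in TA with −0.46, −0.31, −0.38 and 0.03 (mean −0.28, limma adjusted p = 0.0956), and was called under 3 of 10 other processing choices. Eif2s1, the alpha subunit on which the stress kinases act, had pairs on both sides of 0 in each muscle, and means of 0.04 ± 0.25 and −0.05 ± 0.23 (SD, n = 4 pairs each). Among the 4 kinases, Eif2ak3 (PERK), which responds to unfolded protein in the endoplasmic reticulum, rose in TA with 0.42, 0.30, 0.39 and 0.19 (mean 0.33, limma adjusted p = 0.0397). The size of this mean depended on the processing, at 0.51 with a background offset of 0 and 0.70 on Agilent's own log ratios. Its probe was dim, with a mean WT log2 level of 7.10 in TA, beside 6.27 for Eif5b, which could not be tested. In gastrocnemius Eif2ak3 was at 0.20, 0.47, 0.02 and 0.10, above 0 in all 4 pairs, and was not called (limma adjusted p = 0.226). Eif2ak1, Eif2ak2 and Eif2ak4, which sense haem, double-stranded RNA and lack of amino acids, were not called in either muscle. The share of all genes called was 15.4% in gastrocnemius and 16.3% in TA.

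None of the 5 genes placed by symbol under scanning and start codon choice was called. The share of all genes called was 15.4% in gastrocnemius and 16.3% in TA. With so few genes this is no result about the role. Eif1, Eif1a, Eif1ad, Eif1ax and Eif1b had mean log2 ratios between −0.11 (Eif1a) and 0.13 (Eif1ad) in gastrocnemius and between −0.00 (Eif1b) and 0.20 (Eif1ax) in TA. The Eif1ax mean in TA had an unadjusted limma p of 0.0430 and an adjusted p of 0.168. Eif1ax was called there without TA pair 4.

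No initiation factor was called for a difference between the muscles in its ratio of Eif6+/- over WT. The contrast of the log2 ratios, gastrocnemius minus TA, called 0 of the 50 factors and 0% of the 12200 genes tested in both muscles in limma, while 2 factors and 995 genes had an unadjusted p under 0.05. Those 2 were Eif3i, with a difference of 0.32 (95% interval 0.07 to 0.58, limma adjusted p = 0.636), and Eif3a, with a difference of −0.20 (95% interval −0.40 to −0.00, limma adjusted p = 0.647). The intervals were wide beside the effects, so that equal responses were not shown. For Eif5a the difference was −0.15 (95% interval −0.55 to 0.25), for Eif4g1 −0.06 (−0.38 to 0.27), for Eif4b −0.03 (−0.24 to 0.17), for Eif4e 0.04 (−0.24 to 0.32) and for Eif3k −0.18 (−0.41 to 0.06). Over both muscles, 12 of the 50 factors (24%) had the same sign on all 8 arrays, beside 15.7% of all genes. They were Eif2ak3, Eif3a, Eif3d, Eif3j1, Eif3k, Eif4e and Eif4enif1, which were higher, and Eif4a3l1, Eif4b, Eif4g1, Eif4g3 and Eif5a, which were lower. The same dye orientation was used throughout, and the muscles may share mice.

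**Figure D3:**
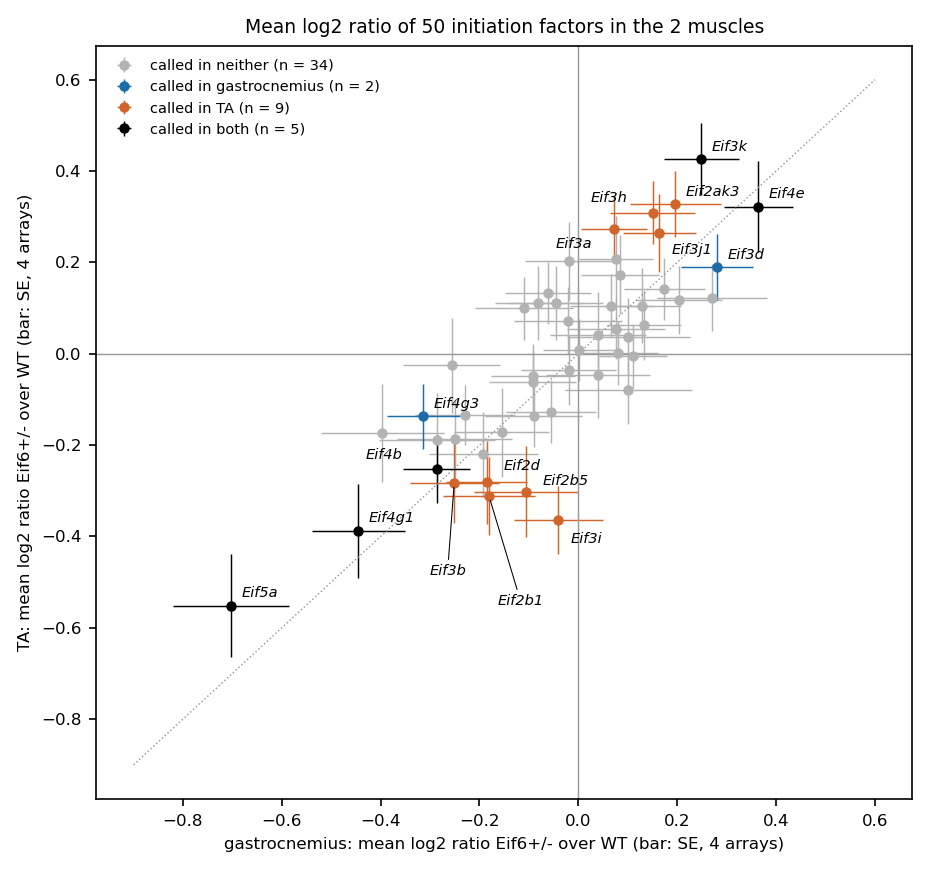
Mean log2 ratio of Eif6+/- over WT in gastrocnemius (x axis) and TA (y axis) for the 50 initiation factors, with standard errors from limma over 4 arrays for each muscle; the dotted line marks equal values. The 5 factors called in both muscles (black) are Eif5a, Eif4g1 and Eif4b below 0 and Eif4e and Eif3k above 0, and Eif3i, at −0.04 in gastrocnemius and −0.36 in TA, lies farthest from the line.

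Probes of the same gene did not always give the same answer. Of the 16 factors with a second probe bright enough to test, the next-brightest probe had the sign of the brightest in 13 in gastrocnemius and in 11 in TA. The 3 probes of Eif4b were at −0.29, −0.29 and −0.18 in gastrocnemius and at −0.25, −0.21 and −0.24 in TA. The second probe of Eif4e also lay above 0, at 0.30 and 0.14, without being called (limma adjusted p = 0.161 and 0.427). The probes of Eif3k lay farthest apart in TA and those of Eif2s2 in gastrocnemius. In TA the 3 probes of Eif3k, from brightest to dimmest, were at 0.43, 0.11 and −0.29, and the outer ones were both called, in opposite directions (limma adjusted p = 0.0280 and 0.0557). In gastrocnemius they were at 0.25, 0.10 and −0.05.

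Eif2s2, the beta subunit of eIF2, was not called by its brightest probe, at 0.08 in gastrocnemius and 0.17 in TA. Its second probe was called higher in both muscles, at 0.69 (limma adjusted p = 0.0287) and 0.71 (limma adjusted p = 0.0119). Eif2b3 and Eif3c, also not called by their brightest probes, were each called higher in 1 muscle by the second probe, Eif2b3 in gastrocnemius at 0.34 (limma adjusted p = 0.0917) and Eif3c in TA at 0.25 (limma adjusted p = 0.09995), where its brightest probe was at −0.04. Eif3h, called higher in TA by its brightest probe, was at −0.08 there by its second probe (limma adjusted p = 0.497). The second probe of Eif4g3 was at −0.04 in gastrocnemius. Those of Eif3j1 and Eif2d were at 0.10 and −0.20 in TA, without being called (limma adjusted p = 0.512 and 0.189). Probe sequences were not used here, so which transcript forms each probe reads was not determined. Eif5a and Eif4g1 had a single probe each.

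**Figure D4:**
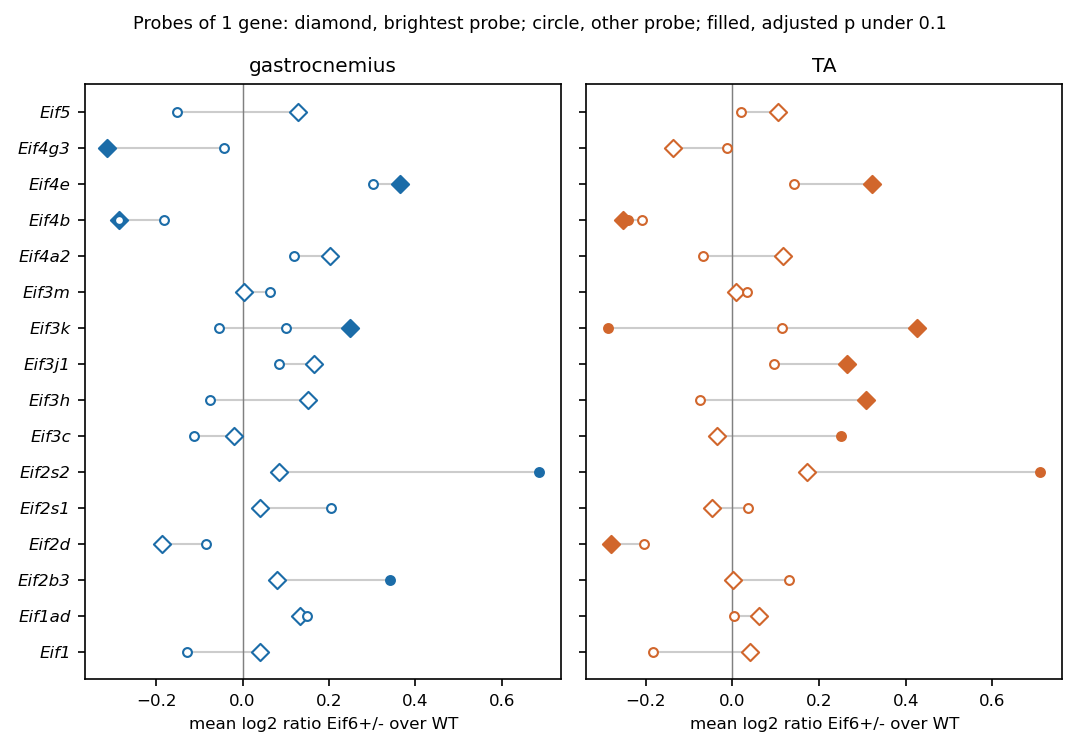
Mean log2 ratio of Eif6+/- over WT for each probe of the 16 initiation factors with 2 or more tested probes, in gastrocnemius (left) and TA (right); diamonds are the brightest probe, circles the others, and filled symbols have an adjusted p under 0.1. The probes of Eif2s2 and Eif3k lie far apart, and those of Eif4b lie close together.

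The level of the factors in WT muscle was compared between gastrocnemius and TA in the Cy3 channel. Only 5 of the 50 factors (10%) were called, beside 21.1% of the 12200 genes tested. Eif2b2, Eif4b and Eif4g3 were higher in gastrocnemius (7.9% of all genes were called higher) and Eif1ad and Eif2b3 were lower (13.2% of all genes were called lower). The log2 level of Eif1ad was 10.41, 10.24, 10.33 and 10.31 in the gastrocnemius of the 4 WT mice and 10.77, 10.97, 10.76 and 11.06 in TA. These groups did not overlap, and the difference of −0.57 (95% interval −0.77 to −0.37) was the largest called (limma adjusted p = 0.00732). Eif2b3, the gamma subunit of eIF2B, differed by −0.35 (95% interval −0.50 to −0.19, limma adjusted p = 0.0159). Eif2b2, the beta subunit, was 0.31 higher in gastrocnemius (limma adjusted p = 0.0577), Eif4b 0.27 higher (limma adjusted p = 0.0811) and Eif4g3 0.25 higher (limma adjusted p = 0.0880). These values come from the same WT readings as the ratios of Eif6+/- over WT, so the comparisons are not independent. The test also treated the muscles as coming from different mice, which was not stated. Without gastrocnemius pair 3, TA pair 2 or TA pair 4, only Eif1ad and Eif2b3 were called, and without gastrocnemius pair 2 or TA pair 3 these and Eif2b2. Without gastrocnemius pair 1 the factors called were Eif1ad, Eif2b3, Eif2ak4 and Eif4ebp2. Without gastrocnemius pair 4 the call of Eif4b was lost, and without TA pair 1 Eif4ebp2 was called beside the 5. In the same WT comparison 4 of 5 slow-fibre genes, 4 of 4 fat cell genes and 4 of 5 connective tissue genes were called higher in gastrocnemius, and their part in the differences was not tested.

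**Figure D5:**
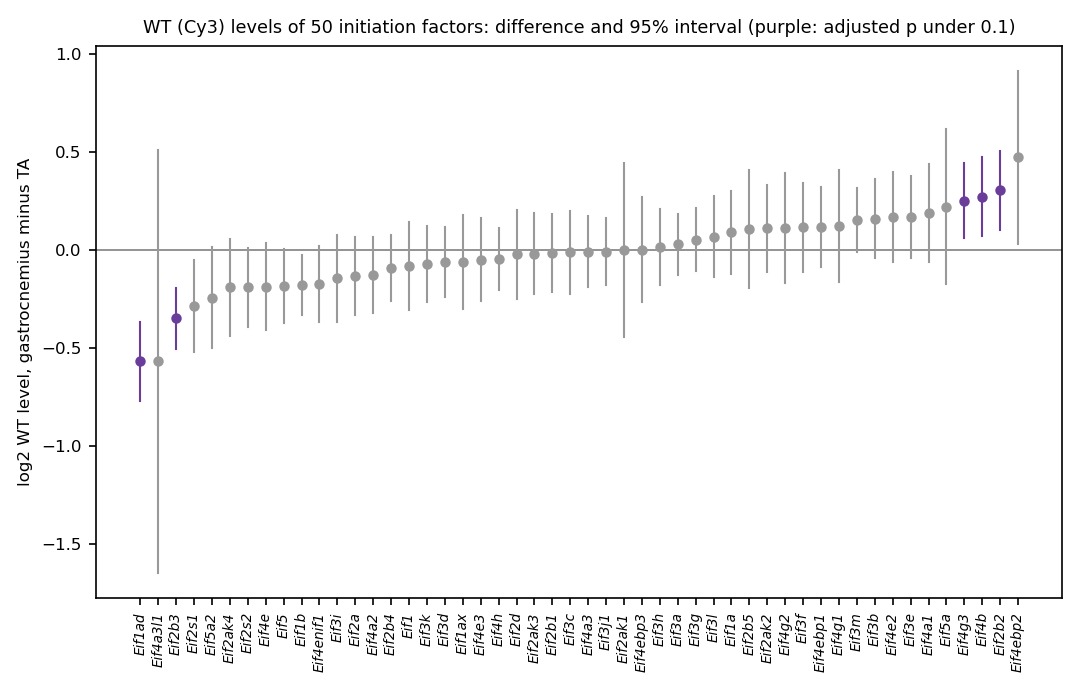
Difference in log2 level between WT gastrocnemius and WT TA (Cy3 channel, 4 mice for each muscle) for the 50 initiation factors, with 95% intervals from limma; purple marks the 5 factors called. Eif1ad and Eif2b3 lie below 0 and Eif4g3, Eif4b and Eif2b2 above 0, and Eif4a3l1, with the widest interval, had 1 WT mouse at 7.29 beside 9.70 to 9.88 in the other gastrocnemius pairs. On that array its log2 ratio of Eif6+/- over WT was −0.56, so both mice read low.

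Other genes of the pathway were read from lists of 50 genes chosen by function. Of 14 genes of mTORC1 and the kinases around it, 2 rose and 3 fell in gastrocnemius, where 9.85% of all genes rose and 5.53% fell, and 3 rose and 3 fell in TA, where 8.98% rose and 7.29% fell. These shares of all genes also stand behind the other lists. Rheb, the GTPase that activates mTORC1, rose in both, by a log2 ratio of 0.47 ± 0.08 in gastrocnemius and 0.44 ± 0.20 in TA (SD, n = 4 pairs each; limma adjusted p = 0.0309 and 0.0341). Akt1s1, which encodes the mTORC1 inhibitor PRAS40, fell in both (−0.44 and −0.45, limma adjusted p = 0.0997 and 0.0538), and so did Rps6kb2, an S6 kinase (−0.34 and −0.31, limma adjusted p = 0.0680 and 0.0823). In gastrocnemius Rptor rose (0.43) and Deptor fell (−0.42), and in TA Rps6kb1 (0.42) and Larp1 (0.37) rose and Mtor fell (−0.27).

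Of the list of eIF2 phosphatase genes, Atf4 and ATF4 targets, only Atf4 was called, out of 11 tested in gastrocnemius and 12 in TA. It encodes the transcription factor whose mRNA is translated when eIF2 is phosphorylated. Its log2 ratio was 0.51 ± 0.07 in gastrocnemius and 0.53 ± 0.26 in TA (SD, n = 4 pairs each; limma adjusted p = 0.0287 and 0.0297), above 0 on all 8 arrays. Its known targets Ddit3 (0.24 and −0.13) and Asns (−0.07 and 0.04) were not called.

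Among 14 partners of initiation, Ddx3x, a helicase, rose in gastrocnemius (0.26), where the poly(A)-binding protein genes Pabpc1 (−0.49) and Pabpc4 (−0.44) fell. In TA, where 13 were tested and Pabpc1 was not, Denr (0.24) and Bzw1 (0.42) rose and Bzw2 (−0.28) fell. Of 10 genes of elongation and release, Eef1a2, the elongation factor form of mature muscle, fell in both muscles, by wide margins between pairs (−0.81 ± 0.70 in gastrocnemius and −0.73 ± 0.54 in TA, SD, n = 4 pairs each; limma adjusted p = 0.0864 and 0.0470), and in gastrocnemius Eef1a1 fell (−0.63) and Eef1d rose (0.23).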

How the data were processed

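The authors scanned 8 two-colour arrays with Agilent Feature Extraction 10.5.1.1, and the deposited intensity values (median signal and background of each channel), Agilent's log10 ratios and other spot flags were used. The authors' deposited table of normalized log2 ratios (array medians of −0.00441 to 0.00375, with Cy5 over Cy3 as its direction by comparison with the scanner values) served as an alternative. The study's methods name quantile normalization and SAM, which was not run. In limma 3.58.1 (R 4.3.3), intensities were corrected by normexp (offset 50), normalized by loess within arrays and by quantiles across the 16 channels. Outlier spots were left out and spots of a probe averaged. A probe entered a muscle's test when every one of its 4 arrays showed it well above background in Cy5 or Cy3, and its log2 ratio was tested against 0, with Benjamini-Hochberg adjustment over the 23802 probes kept in gastrocnemius and 23391 in TA and a threshold of 0.1. The brightest probe stood for a gene. Of 28685 probes with a RefSeq accession, 27235 were named. Roles were assigned by symbol, and Eif4a3l1 was placed with its nearest namesake. Named by rule were Eif6, every factor called, the 3 highest and 3 lowest means in each muscle, a defining factor of each role and the listed pathway genes called; other genes, such as Eif2s2, Eif4enif1, Ddit3 and Asns, were chosen after their values were seen. The members and lists were chosen with earlier results of these data known. The fits were tested on simulated data. Alternatives covered background, normalization, filter, probe choice, fit, threshold and each array left out. The number of arrays limits the precision.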

Additional observations from a re-analysis of the deposited data

Results flagged for a closer look

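In TA, the log2 ratio of Eif4e was 0.70 in pair 2, with the other three pairs between 0.15 and 0.22, and that of Eif3b was 0.0171 in pair 4, with the other three between −0.40 and −0.34. These single values stood far from the rest of their group, the gap taking 0.873 and 0.856 of the whole range. Of 58 groups of 4 pairs examined, 2 held such a value, and chance gives it in about 1 of 20 groups.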

How the results depend on the processing

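In gastrocnemius the count of 7 factors called became 3 with a normexp offset of 0 (11.5% of all genes called), with Agilent's log ratios (9.55%) and at an adjusted p under 0.05 (4.96%), 11 with all 8 arrays in 1 fit (23.9%), and 0 by a one-sample test without moderation (10 at an unadjusted p under 0.05). In TA the count of 14 became 5 with an offset of 0 (9.81% of all genes) and at an adjusted p under 0.05 (6.76%), 3 with Agilent's log ratios (6.82%), 9 with the mean over probes (13.7%), and 0 without moderation (13 at an unadjusted p under 0.05). With any 1 array left out, the counts ran from 0 to 8 in gastrocnemius, from 0 to 15 in TA and from 2 to 6 between the WT muscles, and stayed 0 for the difference between the muscles. Between the WT muscles the count was 2 at an adjusted p under 0.05 and 3 with the pair number as a block. Same-numbered pairs of the muscles correlated at −0.145, 0.019, −0.356 and 0.090, so the numbers were not taken to pair the muscles. The replicate block called 0 factors for the difference between the muscles, with a consensus correlation of −0.133.

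Among the genes named by rule, another probe turned the sign for Eif2s1 in TA (0.0368), Eif3h (−0.0744 in gastrocnemius, −0.0756 in TA), Eif3k (−0.0541 and −0.287) and Eif5 in gastrocnemius (−0.151, and −0.0112 as the mean over probes). Among the others it turned for Eif1 (−0.13 in gastrocnemius, −0.18 in TA), Eif3c in TA (0.25) and Eif4a2 in TA (−0.07). With 1 array left out, the sign varied for Eif2s1 (−0.070 to 0.112 in gastrocnemius, −0.119 to 0.0245 in TA), Eif3i (−0.133 to 0.0093) and Eif4a1 (−0.0959 to 0.0595) in gastrocnemius. For the genes named by rule, 387 values under the alternatives with all arrays held direction and side of the threshold, 85 fell short of it and 5 newly passed it. With 1 array left out, 116 held both, 61 fell short and 2 newly passed. Results that were not called and stayed so count among those that held, while only a called result can fall short. These counts therefore do not measure how steady the calls were. The cause of the changes was not tested. Eif5a was called in 9 of 10 alternatives in each muscle, from −0.75 to −0.69 in gastrocnemius and from −0.59 to −0.55 in TA.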

Other observations

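The WT level of Eif4a3l1 was 7.29 on the log2 scale in gastrocnemius pair 2 and between 9.63 and 9.88 on the other 7 arrays. The log2 ratio of Eif6+/- over WT in gastrocnemius pair 2 was −0.56, so both mice of that pair read low.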
